A study of Mus musculus with 14 samples.

Results

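The wild-type uterus of early pregnancy was described from 4 Affymetrix arrays, 1 array per sample, out of 14 arrays in the series. The members were all samples that the labels call control and saline: C57BL/6 females of wild-type genotype, injected with saline and dissected at E3.5, where the morning of the vaginal plug counts as day 0.5. Whole uterus was taken into Trizol, and biotin-labelled target was made from total RNA by the one-cycle Affymetrix assay. The labels give injection days for folinic acid, the agent used elsewhere in the series, and no dose or day for saline. They call the 4 samples biological replicates and do not say whether a sample pools several animals. The titles of replicates 2 and 3 share a number whose meaning is not given, so it is not known whether these samples are related. The question is a descriptive one: which genes gave the strongest signals in a normal uterus shortly before implantation, which cell types and hormone pathways those genes belong to, which genes stayed at background, and how far the 4 samples differed among themselves.

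The mouse uterus has an inner luminal epithelium with glands, an endometrial stroma around it, and an outer myometrium of smooth muscle covered by a serosa. Before implantation, ovarian oestrogen and then progesterone act through their nuclear receptors: progesterone induces Indian hedgehog in the epithelium, which signals to the stroma through patched, Nr2f2 and Hand2. A brief oestrogen rise then opens receptivity, in which leukaemia inhibitory factor from the glands and epidermal growth factor ligands take part, and the stroma turns into decidua only after the embryo attaches.

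Each value is the deposited signal of a probe set, a linear brightness with no unit that the authors had scaled so that the trimmed mean of every array was 500. Where a gene had several probe sets, the one brightest on average (mean log2) stood for it, which gave 18193 genes. Probe sets differ in how strongly they bind their transcript, so the ranking is one of signal and not of transcript number. Detection calls were not used here, and a gene was called above background when its signal passed the 95th percentile of 83 probe sets for smell and taste receptors on that same array. By this rule 11198 genes (61.6%) were above background on all 4 arrays, 4480 (24.6%) on none and 2515 on some. Of 75 smell and taste receptor genes themselves, 1 was above on all arrays. The threshold was set on their own probe sets, so this count is no check of the rule. Values below are given in the order of replicates 1, 2, 3 and 4. In whole tissue, fewer cells of a type and less RNA per cell cannot be told apart.

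Replicate 3 stood apart in its technical values. Its background threshold was 143, against 62.5 to 73.1 on the other arrays, and 11489 genes passed it, against 12772 to 13017. The ratio of the 3' to the 5' actin control probe set, which rises as RNA or its copies are shortened, was 1.72, 2.21, 3.64 and 1.84, and the same ratio for Gapdh was 1.26, 1.68, 2.48 and 1.20. Without replicate 3, 12127 genes were above background on all arrays. Rank correlations between pairs of arrays lay between 0.931 and 0.961, and the 3 lowest were those with replicate 3.

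**Figure D1:**
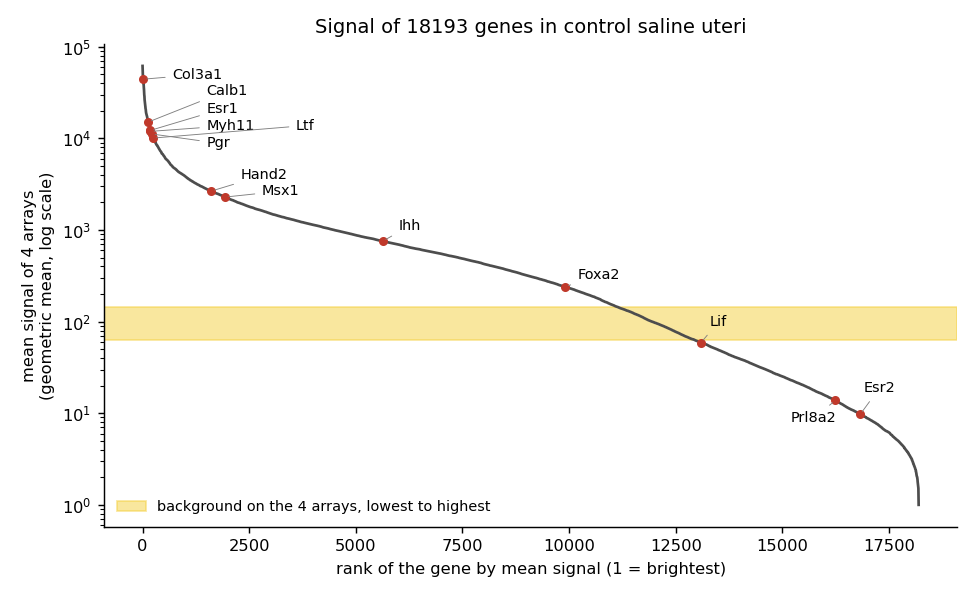
Signal of all 18193 genes against their rank, with the geometric mean of the 4 control saline arrays on a log axis. The yellow band spans the background thresholds of the arrays, from 62.5 to 143; Col3a1 lies at the bright end, Esr1, Pgr, Calb1, Myh11 and Ltf near 10000, and Lif, Esr2 and Prl8a2 at or under the band.

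The strongest signals came from the machinery of protein synthesis and the cytoskeleton. Of the 25 brightest genes 15 encoded cytosolic ribosomal proteins, as did 35 of the brightest 100. Rps29, a protein of the small ribosomal subunit, was first with 53557, 61595, 83559.8 and 53060.5. Rpl38, of the large subunit, had 52459, 60940, 71170.2 and 51826. The other ribosomal protein genes among the 25 were Rps28, Rps3a1, Rpl37a, Rps14, Rpl13a, Rps4x, Rpl41, Rpsa, Rplp2, Rps10, Rps24, Rpl35 and Rps20, with mean signals from 40197 to 55004. Tpt1, a growth-related protein that binds tubulin and calcium, had 48902, 60255, 86316 and 47652. The thymosins Tmsb4x and Tmsb10, which hold actin monomers, were also among the 25: Tmsb4x had 50613, 54727, 63416 and 50917, and Tmsb10 had 41447, 49500.4, 71932 and 39785. Eef1a1, the elongation factor that brings aminoacyl-tRNA to the ribosome, had 46454, 57843, 67231 and 47328. Cytoplasmic actin, Actb, had 43062, 50075, 67359 and 40619, and the chaperone Hspa8 had 35137, 46465, 41605 and 37447.

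A smaller group among the 25 belonged to smooth muscle and connective tissue. Acta2, the smooth muscle actin, had 43568, 43723, 61055 and 38047. Col3a1, the fibrillar collagen of extensible tissue, had 45310, 44404, 45636 and 42003, a range of 1.09-fold, the narrowest of the 25 genes. A dimmer probe set for Col3a1 spread more widely, from 2091 on replicate 3 to 4074 on replicate 1. Lgals1, a galactose-binding lectin of mesenchymal cells, had 40450.3, 47820.1, 31432 and 43342. Malat1, a long nuclear RNA, had 37127, 39128, 69686 and 28783 and was the widest of the 25, with 2.42-fold between replicates 3 and 4. Most genes of this top group were brightest on replicate 3, while Lgals1 was dimmest there.

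Many ribosomal protein genes are read through probe sets whose ID ends in _s_at, _x_at or _a_at, which can bind several transcripts, and many have pseudogene copies. When such probe sets were left out, 3 of the 25 stayed among the brightest: Tmsb4x, Eef1a1 and Rpsa. The 25 brightest of the remaining genes still held the ribosomal proteins Rplp0, Rps15, Rpl19 and Rpl27 and the elongation factor Eef2, with Ifitm3 and Ifitm2, interferon-induced membrane proteins, Cox6c, a subunit of cytochrome oxidase, and Ctsb, a lysosomal protease. Genes of uterine stroma and muscle were the others described here. Dcn, a small proteoglycan that binds collagen fibrils, had 27582, 28146, 35187 and 29873. Pcp4, a calmodulin-binding peptide known from Purkinje cells, had 29185, 26582, 38916 and 25773. Tagln, an actin-binding protein of smooth muscle, had 29714, 22485, 31402 and 23681. The range of these 3 genes over the samples was 1.28-fold, 1.51-fold and 1.40-fold. Sparc, a matrix protein that binds collagen, had 20252, 20562, 17642 and 20776, and Mgp, which restrains calcification of matrix, had 18376, 15793, 24636 and 18397.

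Stroma and muscle markers were the brightest of the cell type lists, and every member measured was above background on all arrays. The 21 genes of endometrial stroma and fibroblasts had a median signal percentile of 96.9 among all genes, where the percentile is the share of genes at or below that signal. Col1a2 and Col1a1, the chains of type I collagen, had 26179.6, 26114, 30816 and 26591 for Col1a2 and 16338, 11930.3, 10658 and 16387 for Col1a1. Pdgfra, the growth factor receptor of fibroblasts, had 6615, 6660.4, 4284 and 6271. Fn1, fibronectin, had 10024, 11799.6, 5118 and 11276, and was lower on replicate 3 than on the other arrays. The lowest of the list were Wt1, a transcription factor of urogenital mesenchyme, with 1897, 1715, 2316 and 1919, and Hoxd10, a posterior homeobox gene, with 2691, 2151, 1616 and 2542, so that the whole list lay in the top 25% of signals.

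Among 42 collagen genes, 23 (54.8%, against 61.6% of all genes) were above background on all arrays, 11 on some and 8 on none. The bright ones were those of fibrils, beaded filaments and basement membrane. Col6a2 and Col6a1, of beaded filaments, had 24264, 21892, 20208 and 23341 for Col6a2 and 20804, 17304, 15786 and 20169.8 for Col6a1. Col4a1, a basement membrane chain, had 9485, 11578, 8256 and 10013. Cartilage collagens gave no signal above background: Col2a1 had 14.3, 12.0, 14.4 and 13.4, and Col10a1 had 3.32, 2.23, 11.2 and 3.25.

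Posterior homeobox genes, which mark position along the female tract, were present in part. Hoxa10, needed in the mouse uterus for stromal response and implantation, had 5249.8, 5089, 3312 and 4652. Hoxa11, its neighbour in the cluster with a like role, had 5044, 4753, 2807 and 5130.1. Hoxa9, known from the oviduct in its main domain, had 5358, 3851, 5314 and 4433. Hoxa13, known from the cervix and vagina, was above background on no array and had 35.1, 33.6, 75.3 and 37.4. Of the 4 clusters, 4 of 9 Hoxa (44.4%) and 6 of 9 Hoxb genes (66.7%) were above on all arrays. So were 3 of 7 Hoxc (42.9%) and 5 of 8 Hoxd genes (62.5%), against 61.6% of all genes. Hoxd9 had 3710.1, 3820.5, 3249 and 3167, and Hoxd13 was above on none.

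The 18 smooth muscle genes had a median percentile of 97.2. Myh11, the smooth muscle myosin heavy chain, had 14204, 9646, 12359.8 and 11988, or 12049 ± 1872 (SD, n = 4). Actg2, the actin of visceral muscle, had 8536, 4857, 3587 and 5992, and Des, the intermediate filament desmin, had 6077, 4008, 3784 and 5132. Mylk, the kinase that activates myosin, had 18673, 15159, 19889 and 15354. Gja1, the gap junction protein of myometrium and stroma, had 7516, 6615, 8315 and 8691. Oxtr, the oxytocin receptor, lay lower in the ranking, at 494, 321, 1007 and 289.7, and replicate 3 was highest for it. The dimmest member, Kcnmb1, a potassium channel subunit, had 143, 97.8, 183 and 212. Replicate 1 was highest for 9 of the 18 genes and replicate 2 lowest for 10. Over all 11198 genes above background, replicates 1, 2, 3 and 4 were highest for 20.4%, 21.4%, 35.6% and 22.6% and lowest for 16.5%, 23.4%, 36.3% and 23.8%. The median shift of the list on the log2 scale was 0.16, -0.22, 0.16 and -0.06.

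Epithelium was represented by all 19 measured genes, with a median percentile of 91.3. Krt8, Krt18 and Krt19 are the keratins of simple epithelium. Krt8 had 6269.6, 10311, 16693 and 6923, Krt18 had 4499.9, 7287, 10219 and 5480.4, and Krt19 had 4833, 7406, 5876 and 5645. Cdh1, E-cadherin, had 4051, 5984, 8455 and 4602, and Epcam, the epithelial adhesion molecule, had 2339, 2866, 2942 and 2669. Wfdc2, a secreted protease inhibitor of genital epithelium, had 7949, 13962, 13427 and 10430. Cldn3, a tight junction protein, had 3014, 8997, 3290.4 and 4734, with replicate 2 highest. Replicate 1 was lowest for 14 of the 19 genes, against 16.5% of all genes above background, and its median shift was -0.32 on the log2 scale. Muc1, the mucin of the luminal surface, had 945, 932, 1724 and 1047.

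**Figure D2:**
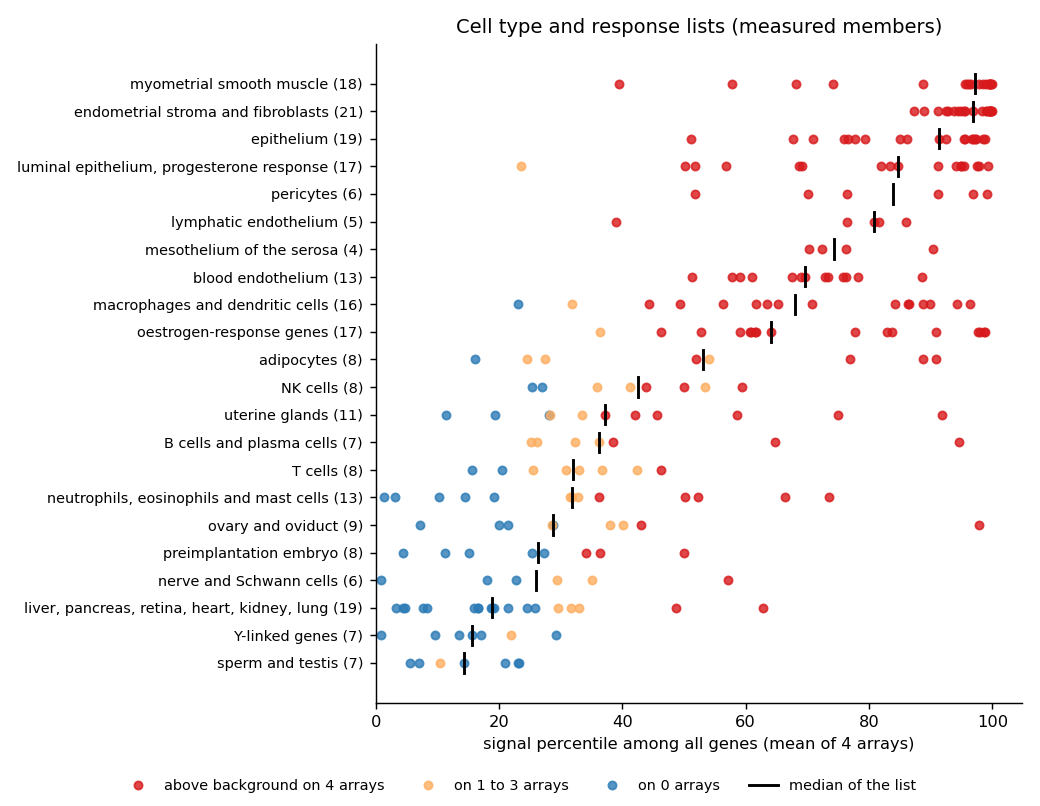
Signal percentile of each measured member of 22 gene lists, 1 point per gene, coloured by the number of arrays on which it was above background, with a bar at the median of the list. Smooth muscle, stroma and epithelium lie at the top with every member above background, and the lists of sperm, Y-linked and foreign tissue genes lie at the bottom.

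Genes of the luminal epithelium and its progesterone response were bright, and 16 of 17 measured members were above background on all arrays. Calb1, a calcium-binding protein of the luminal epithelium, had 10246, 23117, 16226 and 13439, with a mean of 15757 ± 5481 (SD, n = 4). Its other 3 probe sets were also above background on all arrays and were highest on replicate 2. Ihh, the hedgehog ligand that progesterone induces, had 506, 1256, 1131 and 453. Replicates 2 and 3 were high for it and replicates 1 and 4 low. Any 4 values fall into an upper and a lower pair, so this is a description only. Areg, an epidermal growth factor ligand of the same response, carried no probe set with 1 symbol in the annotation used and was not analysed here.

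The stromal side of the hedgehog pathway was present too. Ptch1, the hedgehog receptor and a target of the pathway, had 7576, 11355, 3817 and 6963. Smo, the transducer that patched restrains, had 2405, 2228, 1989 and 2306. Gli1, a transcription factor and target of the pathway, had 1045, 1193, 239 and 1006. Nr2f2, the stromal nuclear receptor downstream, had 4431, 4654, 3418 and 3853. Hand2, the transcription factor with which the stroma restrains growth factor signals to the epithelium, had 3044, 2986, 1767 and 3124. Hhip, a hedgehog-binding inhibitor, had 47.9, 68.0, 15.7 and 54.0 and was above background on 1 array. Through these probe sets replicate 3 was lowest for Ptch1, Smo, Gli1, Nr2f2 and Hand2, against 36.3% of all genes above background. Second probe sets for Ptch1 and Hand2 were lowest there too, but not all others were. A further probe set for Nr2f2, with 3030, 3721, 4453 and 2257, was highest on replicate 3. A second for Smo, with 849, 463, 753 and 881, was lowest on replicate 2.

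The further members of the progesterone list given here ranged from 2.24-fold to 8.67-fold between their lowest and highest array. Not all members ranged so widely: Alox15, Nr2f2 and Hand2 kept to 1.28-fold, 1.36-fold and 1.77-fold. Hdc, the enzyme that makes histamine, had 4149, 12035, 8829 and 7171. Lrp2, an endocytic receptor of the apical surface, had 959, 3885, 1334 and 1455. Gata2, a transcription factor that acts with the progesterone receptor, had 3254, 5923, 6283 and 2809. Acod1, the enzyme that makes itaconate, known in the uterus as a progesterone-induced gene, had 349.8, 3032, 1715 and 2785, so that replicate 1 lay apart below the other 3. Cyp26a1, which degrades retinoic acid, had 493, 191, 315 and 332. Replicate 2 was highest for 11 of the 16 genes above background, against 21.4% of all such genes, and the median shift of the list there was 0.66 on the log2 scale, against -0.22, -0.12 and -0.07 on replicates 1, 3 and 4.

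Glands gave a weaker picture, with a median percentile of 37.2. Of 11 measured gland genes 6 (54.5%) were above background on all arrays, 2 on some and 3 on none. That share is near the 61.6% of all genes. Foxa2, the transcription factor that gland formation needs in the mouse, had 184, 243, 378 and 196. Aldh1a1, a retinaldehyde dehydrogenase, had 2643, 2605, 3439 and 2806, and Cxcl15, a chemokine of glandular epithelium, had 492, 706, 462 and 343. Spink1, a trypsin inhibitor, had 46.9, 25.7, 12.4 and 48.1, and Prss28, an implantation serine protease, had 3.86, 8.01, 35.2 and 43.6, and neither passed background on any array. Prss29, its partner protease, had 109, 71.7, 159 and 218 and passed on all 4. That depended on the probe set: the other 2 for it had 48.3, 2.64, 9.62 and 866, which passed on 1 array, and from 11.8 on replicate 2 to 265 on replicate 4, which passed on 2.

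Of 23 measured hormone receptors 16 (69.6%, against 61.6% of all genes) were above background on all arrays, 5 on some and 2 on none. Esr1, the oestrogen receptor that carries most of the uterine response, had 12269, 12194, 12770 and 11720.5, or 12238 ± 429.6 (SD, n = 4), a range of 1.09-fold. Pgr, the progesterone receptor, had 9582, 11268, 14519 and 10004, or 11344 ± 2235 (SD, n = 4). Esr2, the second oestrogen receptor, had 27.3, 2.07, 14.3 and 11.1 and was above on no array. Pgrmc1, a membrane haem protein linked to progesterone responses, had 7329.6, 8276, 5812 and 7710.3, and Gper1, a membrane oestrogen receptor, had 142, 333, 154 and 193.

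The rest of the receptor list spread over the ranking. Nr3c1, the glucocorticoid receptor, had 1176, 1000.3, 1044 and 1239, and Nr3c2, the mineralocorticoid receptor, had 169, 144, 123 and 138 and was above background on 3 arrays. Igf1r, the receptor for insulin-like growth factor 1, had 2319, 2512, 3724 and 2171, and Ghr, the growth hormone receptor, had 2189, 1540.2, 2401 and 1752. Thyroid hormone receptor Thra had 1477, 1427, 1872 and 1250.1, while Thrb had 71.2, 54.1, 74.9 and 44.2 and was above on none. Among retinoid receptors, Rarg had 990.3, 1040.3, 1222 and 987, Rxra had 553, 707, 460 and 591 and Rxrb had 1069, 1562, 1890.1 and 1371, and all 3 were above on every array. Rara had 143, 168, 120.2 and 118 and Rarb 109.5, 84.5, 130.1 and 90.3, each above on 3. Vdr, the vitamin D receptor, had 123, 96.1, 255 and 113. Ppard had 202, 175, 191 and 162 and was above on all arrays, Ppara had 110.1, 194, 123 and 121 and was above on 3, and Pparg, the adipocyte regulator, had 73.9, 18.6, 76.2 and 34.7 and was above on 1. Insr, the insulin receptor, had 1198, 1096, 1414 and 1073, and Pgrmc2 had 1546, 1838, 1237 and 1300. The prolactin receptor was not analysed here.

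Cofactors and chaperones of steroid receptors were all detected, with 10 of 10 measured genes above background on all arrays. Hsp90aa1, a chaperone that holds receptors ready for hormone, had 13509, 14553, 10974 and 14009. Fkbp4, the immunophilin that the progesterone receptor needs in the mouse uterus, had 2781, 3344, 2131 and 2774, and its relative Fkbp5 had 737, 862, 369.9 and 747. Ncoa2, a coactivator that the progesterone receptor uses, had 1992, 2134, 1933 and 2017. Of 11 measured steroid-metabolising enzymes 5 (45.5%, against 61.6% of all genes) were above on all arrays. Hsd11b2, which inactivates glucocorticoids, had 4315, 5224, 1396 and 4462, and Hsd17b11 had 7306, 5493, 7987 and 6606. Enzymes that make steroids from cholesterol were faint: Cyp11a1 had 40.4, 21.9, 23.2 and 44.6 and Cyp17a1 had 7.05, 12.2, 43.7 and 6.36, both above on none. Another probe set for Cyp11a1 passed on replicate 1, with 95.3. Hsd3b1, of the same pathway, had 159, 67.9, 82.9 and 12.7 and was above on 2 arrays, and Star, which carries cholesterol into mitochondria, had 223, 167, 226 and 199 and was above on all. Sult1e1, which sulphates oestrogen, had 7.21, 6.98, 3.26 and 29.7.

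Oestrogen-response genes were above background for 16 of 17 measured members, with a median percentile of 64.1. Ltf, lactoferrin, the classical oestrogen-induced secretion of the mouse uterus, had 8063, 6567, 11363 and 17216, with replicate 4 highest. Sprr2f, a small proline-rich protein that oestrogen induces in uterine epithelium, had 4139, 7219, 11206 and 8343. Igf1, a growth factor that oestrogen induces in the uterus, had 10805, 10183, 4200 and 9403, with replicate 3 lowest. Ccnd1, a cyclin of the G1 phase, had 2642, 2211, 3380.1 and 2326. Gjb2, a gap junction protein, had 637, 199, 819.7 and 569, and Clca1, a secreted protein of mucosal epithelium, had 1117, 196, 341 and 1269. Krt13 had 519, 12.2, 448 and 74.1 and was above on 3 arrays. Replicate 2 was lowest for 11 of the 16, against 23.4% of all genes above background, with a median shift of -0.52 on the log2 scale.

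**Figure D3:**
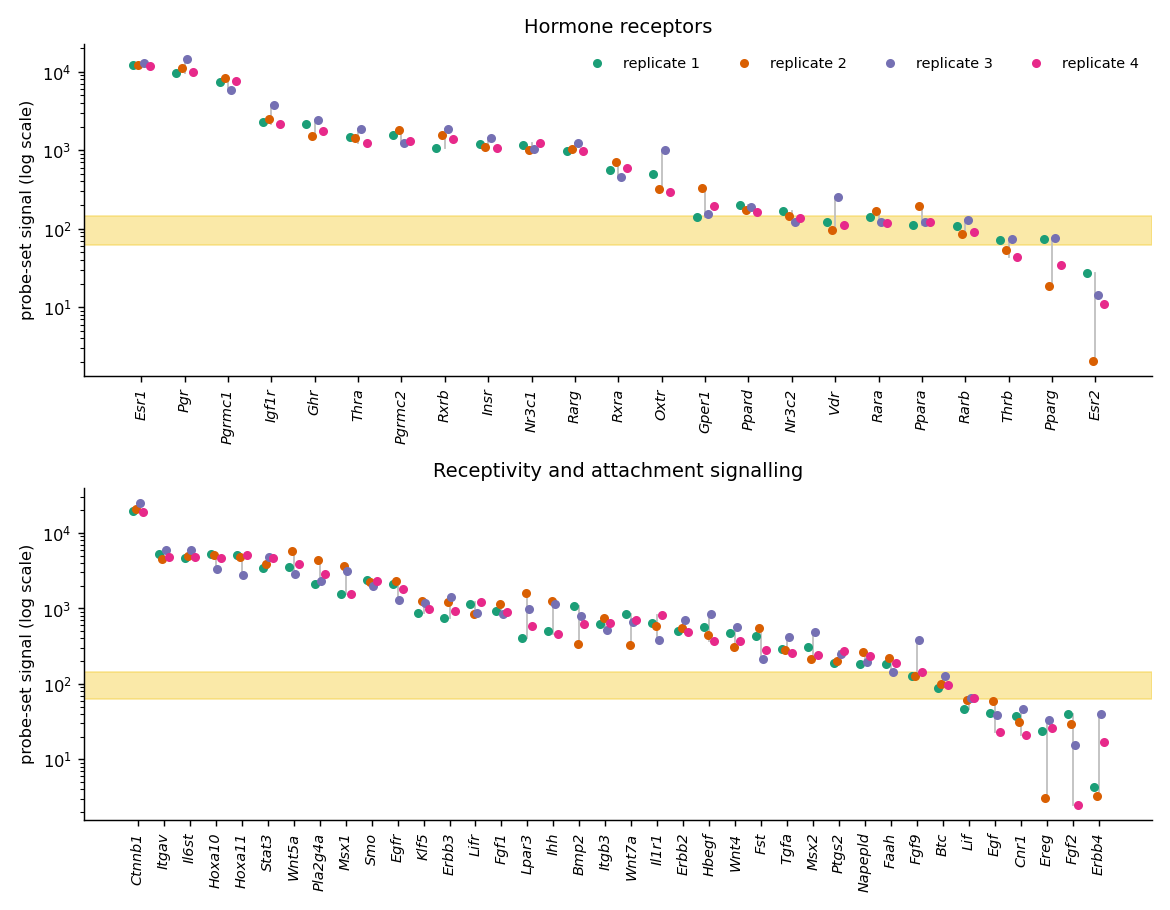
Signal of every measured hormone receptor (upper panel) and receptivity gene (lower panel), ordered by mean signal, on log axes, with 1 point per array coloured by replicate and a grey line from the lowest to the highest. The yellow band is the range of background thresholds; Esr1 and Pgr lie near 10000 on all arrays, Esr2 and the growth factors Lif, Egf, Ereg and Fgf2 in or under the band.

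Receptivity and attachment genes were detected for 31 of 38 measured members, 6 were above background on no array, and 1 was above on some. Lif, the cytokine that implantation needs, had 46.1, 61.3, 65.1 and 66.0 and was among those at background. A second probe set for it had 7.46, 47.8, 10.7 and 10.1. The receiving side was present on all arrays: Lifr, its receptor, had 1163, 845, 875 and 1200.5, Il6st, the shared signalling chain, had 4601, 4909.9, 5967 and 4800.5, and Stat3, the transcription factor they activate, had 3439, 3866, 4760.4 and 4669. By this rule the ligand was not detected in samples where its receptor chains were. The margin was narrow on 2 arrays: 61.3 against a threshold of 62.5 on replicate 2, and 66.0 against 67.8 on replicate 4. It was wider on replicates 1 and 3, with thresholds of 73.1 and 143. Probe sets differ in binding, so these signals do not compare amounts of ligand and receptor.

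Epidermal growth factor ligands and receptors were also split. Hbegf, the ligand that appears where the blastocyst attaches, had 564, 445, 839 and 367, and Tgfa had 291, 278, 422 and 256, both above background on all arrays. Btc had 89.5, 101, 129 and 97.5 and was above on 3. Egf had 41.2, 59.8, 39.1 and 23.3 and Ereg had 23.4, 3.10, 32.9 and 26.4, and neither passed on any array. Of the receptors, Egfr had 2134, 2313, 1309 and 1790.3, Erbb2 had 509, 559, 714 and 490.3 and Erbb3 had 739, 1214, 1408 and 937, all above on every array. Erbb4 had 4.23, 3.25, 39.9 and 16.9 and was above on none.

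Homeobox and epithelial regulators were above background. Msx1, a homeobox gene of the epithelium before attachment, had 1553, 3668, 3132 and 1544, with replicates 2 and 3 at least 2-fold over replicates 1 and 4. Msx2, its relative, had 312, 212, 491 and 241. Klf5, an epithelial factor that attachment needs in the mouse, had 859.5, 1265, 1199 and 993. Among Wnt ligands, Wnt5a, which guides crypt formation, had 3557, 5747, 2889.9 and 3939, Wnt7a, of the luminal epithelium, had 849, 326, 661 and 712, and Wnt4, of the stroma, had 480.2, 305, 575 and 372. Ctnnb1, the catenin that canonical Wnt signals stabilise, had 19769, 21022, 25068 and 19234. Of 19 Wnt genes 8 (42.1%, against 61.6% of all genes) were above on all arrays.

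Lipid mediators had their enzymes and receptors on the array. Pla2g4a, the phospholipase that releases arachidonic acid, had 2094, 4448, 2321 and 2875. Ptgs2, the inducible prostaglandin synthase, had 188, 200.3, 246 and 277, and was above background on all 4. Lpar3, the lysophosphatidic acid receptor of the luminal epithelium that embryo spacing needs, had 409, 1592, 994 and 582, with replicate 2 highest. Cnr1, the cannabinoid receptor, had 38.0, 31.4, 46.5 and 21.0 and was above on none. Faah, which degrades anandamide, had 184, 221, 146 and 191, and Napepld, which makes it, had 186, 262, 195 and 231.

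The remaining receptivity genes filled the middle of the ranking. Itgav and Itgb3, the chains of an integrin of the attachment surface, had 5237, 4514, 6040 and 4846 for Itgav and 619, 746, 522 and 641 for Itgb3. Il1r1, an interleukin 1 receptor, had 646, 592, 379.5 and 823. Fst, which binds activins, had 432, 558, 211 and 278. Fgf1 had 924, 1162, 855 and 898, Fgf9 had 126, 129, 379 and 143, with replicate 3 alone high, and Fgf2 had 39.5, 29.1, 15.5 and 2.50 and was above background on no array. Ptgs1 and Spp1 were not analysed here.

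Decidual genes were detected in part. Of 15 measured members 9 (60%) were above background on all arrays, 3 on some and 3 on none. That share is near the 61.6% of all genes. Bmp2, which drives decidualisation in the mouse, had 1065, 334, 801 and 625, with replicate 2 lowest. Mmp2, a gelatinase, had 10729.7, 8137, 6202 and 10232, and Timp3, a protease inhibitor, had 2205, 2383, 1965 and 1939. Igfbp3 had 2264, 1788, 3584 and 2060.1, Ccnd3, a cyclin of decidual cells, had 1238, 1199, 1397 and 1318, and Ptges, a prostaglandin E synthase, had 239, 177, 181 and 142. Prl8a2, the decidual prolactin-related protein, had 21.7, 3.30, 54.4 and 9.26, Prl3c1 had 2.74, 3.40, 1.39 and 1.90, and Igfbp1 had 5.91, 25.3, 31.7 and 26.0, and these 3 were above on no array. Alpl, the phosphatase of early decidua, had 60.1, 125, 156 and 77.3 and was above on 3 arrays. Tdo2, a tryptophan dioxygenase of decidua, had 33.7, 75.4, 89.4 and 78.2, and Il11, a cytokine of decidualisation, had 126, 70.3, 29.1 and 34.8, each above on 2.

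Cell cycle genes were all detected, 17 of 17. Mki67, a marker of dividing cells, had 1166, 2056, 1487 and 1582, and Pcna, the clamp of DNA polymerase, had 5165, 5212, 3422 and 6094. Cdkn1c, an inhibitor of the cycle, had 1983, 2003, 1393 and 1859. Ion and water transport genes were above background for 12 of 16 (75%, against 61.6% of all genes). Fxyd4, a regulator of the sodium pump, had 6204, 19830.5, 7088 and 8429.9, and Atp1b1, a subunit of that pump, had 4537, 12654, 6905 and 5393, both highest on replicate 2. That array was highest for 6 of the 12, with a median shift of 0.23 on the log2 scale, against 0.22 on replicate 3. Scnn1a and Scnn1b, subunits of the epithelial sodium channel, had 271, 372, 342 and 143 for Scnn1a and 423, 467, 486 and 368 for Scnn1b, while Scnn1g had 21.5, 3.70, 20.1 and 4.16 and was above on none. Cftr, the chloride channel, had 265, 185, 505 and 273.

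The gene that is mutated in other groups of the series, Izumo1r, labelled Folr4, had 19.0, 46.9, 52.7 and 72.4 and was above background on replicate 4 only. Its relatives, the folate receptors Folr1 and Folr2, had 118, 98.1, 322 and 143 for Folr1 and 497, 217, 466 and 586 for Folr2 and were above on all arrays. Slc19a1, the reduced folate carrier, had 939, 854, 615 and 862, and Slc46a1, the proton-coupled folate transporter, had 199, 257, 282 and 248. In all, 11 of 15 measured folate and methionine cycle genes (73.3%, against 61.6% of all genes) were above on every array. Gnmt and Bhmt, known from liver, were above on none.

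Vascular cells were detected throughout. All 13 blood endothelial genes, 5 lymphatic genes and 6 pericyte genes that were measured were above background on every array. Pecam1, an adhesion molecule of endothelium, had 590, 537, 370.3 and 709.6, and Kdr, the receptor for vascular endothelial growth factor, had 955, 917, 1035 and 787. Lyve1, the hyaluronan receptor of lymphatics, had 1474, 1058, 1311 and 1442. Rgs5, a pericyte regulator of G protein signals, had 12420.1, 17406, 12945 and 12182. Cdh5, the endothelial cadherin, had 568, 660.4, 182 and 689, with replicate 3 alone low. The serosa was seen through 4 of 4 mesothelial genes, of which Upk3b had 2555, 1381, 3969.5 and 2749.7 and Msln, mesothelin, had 775, 487, 1788 and 857.

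Immune cells were led by macrophages, with 14 of 16 genes above background on all arrays. Csf1r, the macrophage growth factor receptor, had 3517, 2660.1, 4158 and 4771, and Adgre1, the F4/80 antigen, had 538, 385, 707 and 1129. Lyz2, lysozyme, had 5337, 2848, 4792 and 10606. Lymphocyte genes were faint. Of 8 T cell genes 1 was above on all arrays, Cd3g with 488, 123, 163 and 398. Without replicate 3 the count was 3, and without replicate 2 it was 2. Of 8 NK cell genes 3 (37.5%, against 61.6% of all genes) were above on all arrays, and 6 without replicate 3. Klrd1, a chain of NK receptors, had 439.7, 624, 374 and 615, and Gzmb, a protease of cytotoxic cells, had 638, 472, 60.2 and 1091. Ncr1, the receptor that defines NK cells, had 64.6, 41.8, 33.8 and 53.9 and was above on none, as were Cd4 and Foxp3 of the T cell list.

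Of 7 measured B cell and plasma cell genes 3 (42.9%, against 61.6% of all genes) were above background on all arrays. The other 4 were above on some. Igha, the heavy chain of immunoglobulin A, had 8432, 2211, 2490 and 4886, and Jchain, which joins its polymers, had 1271, 603, 259 and 771. The third was Mzb1, of plasma cells, with 125, 129, 180 and 136, while Pou2af1, a B cell coactivator, had 32.7, 29.2, 96.0 and 73.2 and passed on 1 array. Of 13 granulocyte genes 5 were above background on all arrays, and 4 of these were of mast cells: Cpa3 had 1271, 562, 864 and 1185, Cma1 had 947, 322, 849.6 and 784, Mcpt4 had 469, 190.3, 359 and 478 and Tpsb2 had 364, 133, 439 and 456. Fcer1a, a chain of the mast cell receptor for immunoglobulin E, had 129, 57.7, 42.3 and 197 and passed on 2 arrays. S100a8, of neutrophils, had 76.4, 118, 204 and 106. Epx, Prg2, Siglecf and Ccr3 of eosinophils and Elane of neutrophils were above on none.

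Genes of other tissues served as a check on the dissection. No sperm gene of 7 and no Y-linked gene of 7 was above background on all arrays, and Xist, the RNA of the inactive X chromosome, had 19077, 20209.5, 20308 and 17112. Pou5f1, Nanog and Cdx2, which define cells of the blastocyst, were above on none, with 63.1, 47.5, 48.3 and 35.3 for Pou5f1. The members of the embryo list that passed on all arrays were Eomes, Tfap2c and Dppa5a, and Eomes, with 305, 395, 252 and 305, is also in the NK cell list. Ovgp1, the oviduct glycoprotein, had 7579.7, 13772, 6990 and 4596, while Foxj1, the factor of ciliated oviduct cells, had 35.7, 33.0, 44.0 and 27.3 and was above on none. Without replicate 3, 4 of the 9 ovary and oviduct genes were above, against 2 with it. Nerve and Schwann cell genes gave 1 of 6, Mbp, and 2 without replicate 2. Red blood cell genes gave 1 of 3, Alas2, and 2 without replicate 4. Of 19 genes of liver, pancreas, retina, heart, kidney and lung 2 were above on all arrays, Cela1 with 364, 228, 258 and 333 and Cyp2e1 with 2278, 67.4, 1249.9 and 584.

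The spread between the 4 samples was small for most bright genes. Over the 11198 genes above background the median SD of the log2 signal was 0.25, and 0.17 without replicate 3. With all genes cut by signal into 4 equal parts, from the dimmest to the brightest, the median SD was 1.20, 0.43, 0.25 and 0.21. In the top 25% of genes, with signals over 985, 2888 of 4549 genes (63.5%) kept within 1.5-fold between their lowest and highest array, and 38 genes ranged over more than 4-fold. Aprt, which salvages adenine, was the steadiest of the top 25%, with 4759, 4752, 4747 and 4677. It was followed by Txnl4a, Fam50a, Cript, Cop1, Ikbkb, Dynlt3, Rela, Npm1 and Gstp1, with SDs of 0.019 to 0.023 on the log2 scale. Rela and Ikbkb, a subunit and a kinase of the NF-kappaB pathway, had 2003, 2019, 2061 and 2063 for Rela and 2284, 2344, 2285 and 2345 for Ikbkb.

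Within the top 25%, the largest SD of the log2 signal, 3.25, was that of Prap1, a secreted proline-rich acidic protein known from uterus and intestine. It had 22274, 559, 399 and 24093, so that replicates 1 and 4 were bright and replicates 2 and 3 were far dimmer, a range of 60.4-fold. The range of Adipoq, given below, was wider at 72.6-fold. The median signal of all genes was 311. A second probe set gave 19214, 397, 670 and 20186, the same division. No other gene of the top 25% had replicates 2 and 3 at least 2-fold under both of the others. In the opposite direction 4 genes did so: Msx1, given above, Socs7, a suppressor of cytokine signalling, with 1487, 3639, 4148 and 1419, Pex11a, a peroxisome protein, with 1231, 3289, 2618 and 1257, and Itpr2, a calcium channel of the endoplasmic reticulum, with 822, 1910.3, 1920 and 832. Replicates 2 and 3 are the samples whose titles share a number, and whether that has a part in the division was not tested.

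**Figure D4:**
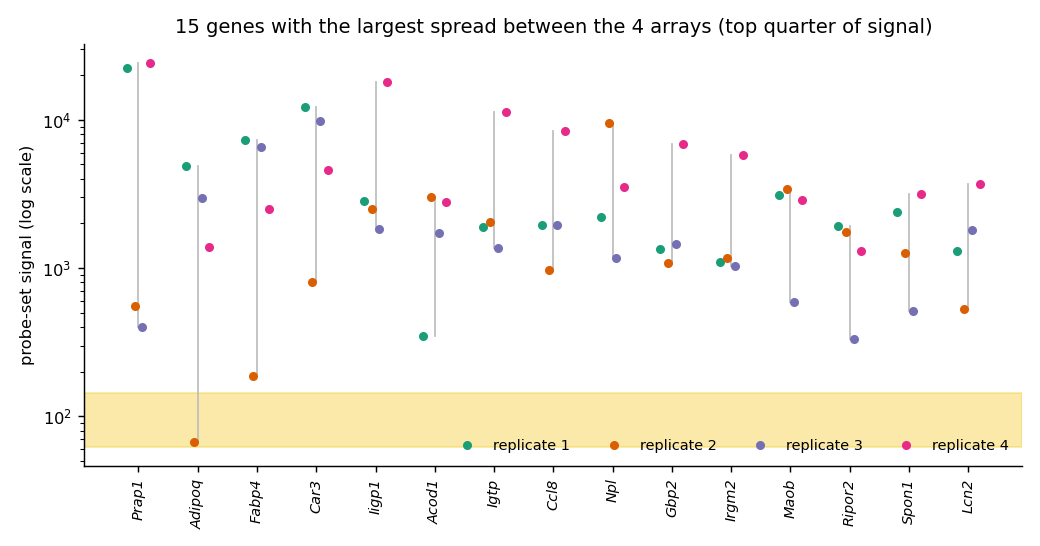
Signal of the 15 genes with the largest SD of log2 signal in the top 25%, on a log axis, 1 point per array coloured by replicate, with a grey line over the range and the background thresholds as a yellow band. Prap1 divides replicates 1 and 4 from 2 and 3, Adipoq, Fabp4 and Car3 are low on replicate 2, Maob and Ripor2 low on replicate 3, and Iigp1, Igtp, Gbp2 and Irgm2 high on replicate 4.

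Each array was then set against the other 3. Among the 4549 genes of the top 25%, replicate 1 was at least 2-fold higher than every other array for 0 genes (0%) and at least 2-fold lower for 1 (0.022%), Acod1. Replicate 2 was higher for 12 (0.264%) and lower for 8 (0.176%). Replicate 3 was higher for 30 (0.659%) and lower for 59 (1.3%). Replicate 4 was higher for 23 (0.506%) and lower for 0 (0%). These are descriptions of single samples, with no replicate of their own.

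Replicate 4 carried an interferon-gamma pattern. Interferon-gamma, a cytokine of NK and T cells, induces immunity-related GTPases, guanylate-binding proteins, immunoproteasome subunits and peptide transporters. All 17 genes of that list that were above background on every array were highest on replicate 4, with a median shift of 1.42 on the log2 scale, against -0.41, -0.48 and -0.55 on replicates 1, 2 and 3. Over all 11198 genes above background, 2531 (22.6%) were highest on replicate 4, and the median shift was 0.00. The list was written down after these values had been seen. It is given as a description.

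The GTPases showed this most clearly. Iigp1 had 2854, 2507, 1834 and 17893, and Igtp had 1906, 2057, 1362 and 11206. Irgm2 had 1090.2, 1167, 1026 and 5828, and Gbp2, a guanylate-binding protein, had 1349, 1079, 1459 and 6888. Immunoproteasome subunits followed: Psmb8 had 1371, 1423, 867 and 4419.9 and Psmb9 had 782, 766, 668 and 2942. Tap1, which carries peptides to MHC class I, had 849, 913, 1134 and 2999.5, and B2m, the light chain of that class, had 14959, 16588, 13172 and 26326. Ifng itself had 34.5, 31.7, 25.8 and 159, above background on replicate 4 only, and so was Cxcl9, a chemokine that it induces, with 31.2, 24.2, 96.5 and 1085. Type I interferon genes stood out less: 7 of 10 were highest on replicate 4, with a median shift of 0.43, and Rsad2, an antiviral enzyme, had 1701, 1893, 2791 and 1673. That list was also written down after values had been seen, as was the list of MHC class II genes.

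Macrophage and MHC class II genes were high with this pattern. Of 14 macrophage genes 11 were highest on replicate 4, and the summed signal of the 16 measured genes was 21785, 15736, 21803 and 37155. All 5 measured MHC class II genes were highest there, of which H2-Aa had 8847, 6944, 10727 and 15861 and Cd74, the invariant chain, had 8132, 5349.8, 8596 and 16521. Summed signals were 1257, 521, 632 and 1777 for the 8 T cell genes and 1858, 2023, 1201 and 3364 for the 8 NK cell genes, while Cd4, Foxp3 and Ncr1 stayed at background on every array. These sums include genes at background and rest on a few members, such as Cd3d with 620 and Gzmb with 1091 on replicate 4. Cd3g, the only T cell gene above background on all arrays, was highest on replicate 1, with 488 against 398 on replicate 4. Klrd1 and Eomes of the NK cell list were highest on replicate 2. Over the 3 NK cell genes above background the median shift was 0.32 on replicate 2 and 0.30 on replicate 4. Other immune lists were not highest there: the sums were 9993, 3279, 3387 and 6178 for B cells and plasma cells and 3477, 1588, 3286 and 3408 for granulocytes. The part of these cells in the interferon pattern was not tested. Ccl8, a monocyte chemokine, had 1962, 964, 1942 and 8367.

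Promoter windows are shown for 4 GTPases of the interferon-gamma list, chosen because a letter pattern described here was found in them. From RefSeq on GRCm38.p6, the 250 bases before the start of the gene were searched on both strands for GAAA, any 2 bases and GAAA again, the core of the interferon-stimulated response element. Of 16 interferon-gamma genes with a window, 7 (43.8%) held this GAAA repeat, against 2.64% of 14367 windows of all genes. Of 9 type I interferon genes with a window, 4 (44.4%) held it too. Shown are the 120 bases before the start on the strand of the gene, 5′ to 3′, with matches to the repeat in capitals. A match is a description of letters and not a site shown to be bound.
Igtp, chr11:58199436-58199555, plus strand: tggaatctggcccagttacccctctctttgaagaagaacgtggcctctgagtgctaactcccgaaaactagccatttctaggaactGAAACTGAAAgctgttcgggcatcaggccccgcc
Irgm2, chr11:58214857-58214976, plus strand: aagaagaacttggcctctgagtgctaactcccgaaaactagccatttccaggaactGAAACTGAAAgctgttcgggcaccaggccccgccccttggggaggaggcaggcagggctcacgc
Gbp2, chr3:142620543-142620662, plus strand: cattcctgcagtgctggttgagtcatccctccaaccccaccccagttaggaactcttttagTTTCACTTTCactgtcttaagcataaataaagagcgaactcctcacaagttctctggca
Gbp7, chr3:142530216-142530335, plus strand: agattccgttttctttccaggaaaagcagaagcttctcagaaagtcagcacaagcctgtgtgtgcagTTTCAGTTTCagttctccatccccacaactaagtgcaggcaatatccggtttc
The windows of Igtp and Irgm2, both on chromosome 11, share a run of 38 bases without a difference, so their matches are not independent of each other. Gbp2 and Gbp7, on chromosome 3, hold the GAAA repeat on the opposite strand, where it reads as TTTC. Gbp7 had 1887, 1892, 1644 and 6719.

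Replicate 2 was low in fat and serosal genes. Adipoq, the adipocyte hormone adiponectin, had 4861, 67.0, 2985 and 1395. Fabp4, the fatty acid carrier of adipocytes, had 7299, 188, 6534 and 2494, and Car3, a carbonic anhydrase abundant in fat, had 12129, 803, 9778 and 4569. Retn, resistin, had 1962, 17.9, 1281 and 509, and Cyp2e1, a liver enzyme given above, was also lowest on replicate 2. The summed signal of the 8 adipocyte genes was 18342, 1696, 17505 and 7007. All 4 mesothelial genes were lowest on replicate 2 and highest on replicate 3, with sums of 5144, 2994, 8527 and 5710. Whether the amount of attached fat or serosa has a part in these differences was not tested.

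The genes that were high on replicate 2 were led by Acot7, an acyl-CoA thioesterase, with 2091, 10349, 1776 and 3557, followed by Jam2, a junctional adhesion molecule, with 1591, 5552, 1533 and 2009.8, and Npl, which cleaves sialic acid, with 2216, 9481, 1161 and 3519. Lrp2 and Fxyd4, given above, were among the same 12 genes. Calb1, Hdc, Atp1b1 and Lpar3, all given above, were also highest on this array. The genes low on replicate 2 also included Lcn2, a lipocalin that binds siderophores, with 1305, 528, 1811 and 3696, and Pigr, the immunoglobulin A transporter, with 1317, 628, 1538 and 1647.

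Replicate 3 was low in a set of matrix genes. Col18a1, a basement membrane collagen, had 4459, 4757, 1124 and 4277, and Col15a1, its relative, had 3331, 3089, 912 and 3355. Vcan, a large matrix proteoglycan, had 1875, 1766, 479.7 and 2252, and Spon1, a secreted matrix protein, had 2391, 1269, 509.7 and 3161. Maob, a monoamine oxidase, had 3133, 3393, 589.6 and 2875, and Hsd11b2, given above, was low there as well. Col3a1, Dcn and Lum, also of the matrix, did not follow through the brightest probe set of each: Lum, a collagen-binding proteoglycan, had 19604, 13218, 24634 and 16611. A dimmer probe set for Col3a1 was lowest on replicate 3, with 4074, 3167, 2091 and 3603. Of 12 matrix genes listed after these values had been seen, 10 were lowest on replicate 3, with a median shift of -1.36 on the log2 scale. Lists not picked in this way shifted far less there: 14 of 23 collagens were lowest on replicate 3, with a median shift of -0.22, and 12 of 21 stroma genes, with -0.25, against 36.3% of all genes above background. Genes high on replicate 3 included Dsp, desmoplakin of cell junctions, with 3256, 3390.1, 7905 and 2397, and Deptor, an inhibitor of mTOR, with 893, 813, 2486 and 702. The actin and Gapdh ratios and the background threshold of this array were the highest of the 4, and their part in these differences was not tested.

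**Figure D5:**
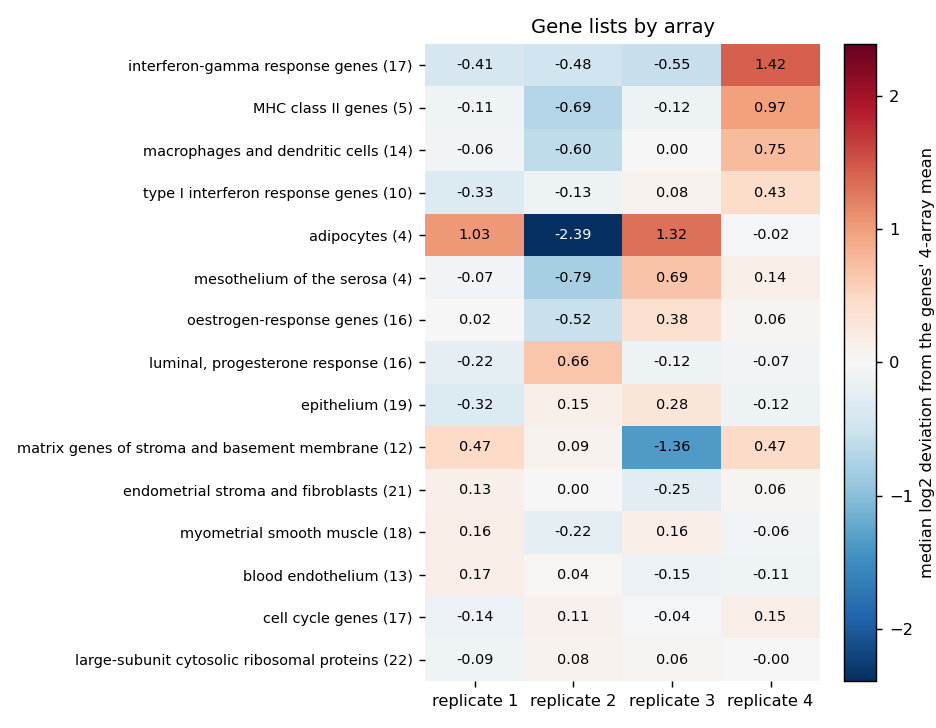
Median deviation of each gene list from the 4-array mean of its genes, on the log2 scale, 1 column per array, over the genes above background on all arrays (number in brackets). Interferon-gamma, MHC class II and macrophage lists are high on replicate 4, adipocyte genes are low on replicate 2 at -2.39, the 12 matrix genes picked after their values had been seen are low on replicate 3 at -1.36, where the stroma list is at -0.25, and smooth muscle and ribosomal protein genes stay near 0.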

How the data were processed

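Whole uteri were measured on Affymetrix arrays. Per probe set, the deposited value is an intensity on a linear scale, which the authors made with MAS5, per the submitters' processing notes, which give no version. The trimmed mean of each array was 500, so each had been scaled by 1 factor. A scaling of this kind forces arrays to a like total and can hide a shift of all genes. No further normalization was applied. For arrays, their number limits the precision.

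Of 45101 probe sets, 45037 remained once 64 controls had been removed. The platform annotation gave 34945 of these a single symbol, 932 several and 9160 none, and 34741 were matched by gene identifier to RefSeq on GRCm38.p6. Probe sets with several or no symbols were not named. Signals under 1 (0.415% of values) were raised to 1 before log2 was taken.

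No groups were compared and no test was run, apart from an outlier ratio used further below to flag single arrays. The genes named were the 25 brightest, the markers Calb1, Areg, Ihh, Myh11 and Col3a1, the brightest and dimmest members of each list, all hormone receptor, receptivity and decidual genes, the 15 most and 10 least variable genes of the top 25%, and Xist. Other genes named were chosen after their values were seen. The members and lists were chosen with earlier results of these data known. No pair of arrays shared an equal value at any probe set, so no array was a copy of another. Each was counted as a sample, although this does not show that the samples are unrelated. The counting rules were tried on simulated data with a single probe set per gene and the same background on every array. The choice of the brightest probe set and unequal backgrounds were therefore not checked. Python 3.11.15, pandas 2.3.3, numpy 2.4.6 and matplotlib 3.10.9 were used. Alternatives were the background percentile and genes, the arrays required, quantile scaling, the probe set per gene, an offset, and leaving out each array.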

Additional observations from a re-analysis of the deposited data

Results flagged for a closer look

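For each named gene, the gap between the most distant array and its nearest neighbour was divided by the range of the 4 log2 values. Of 297 named genes, 25 (8.42%) exceeded Dixon's 95% critical value for 4 samples, against 824 of the 11198 genes above background (7.36%). Chance alone passes this value in about 1 of 20 groups. Some named genes were chosen after their values were seen, among them genes with 1 array apart. The share among named genes is therefore a description and no support for them.

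Replicate 3 was the array apart most often among the flagged genes. Over all 11198 genes above background it was also most often the highest array, for 35.6%, and the lowest, for 36.3%. How often replicate 3 was apart among all 824 flagged genes was not counted. Its background threshold of 143 and its 11489 genes above background were themselves apart from the other arrays. It was low for the matrix genes Col15a1 at 912, Col18a1 at 1124, Vcan at 479.7 and Sparc at 17642, and for the stromal genes Hand2 at 1767, Hoxa11 at 2807, Pdgfra at 4284, Igf1 at 4200 and Gli1 at 239. It was also low for Cdh5 of endothelium at 182, for Hsd11b2 at 1396 and Maob at 589.6, and for the ribosomal protein gene Rpl27 at 13165. It was high for Col1a2 at 30816, Fgf9 at 379 and Hoxa13 at 75.3, the last of which stayed at background. The 3' to 5' actin ratio of this array was 3.64, and its part in these values was not tested.

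Replicate 4 was apart in the interferon-gamma genes, at 6888 for Gbp2, 6719 for Gbp7, 5828 for Irgm2, 2942 for Psmb9 and 159 for Ifng. It was also apart for Aprt, at 4677, although the SD of that gene was the smallest of the top 25%. Replicate 2 was apart for Rgs5, a pericyte gene, at 17406, and for Ereg, at 3.10 and under background. Igfbp1, also at background, was apart on replicate 1, at 5.91.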

How the results depend on the processing

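The list of the 25 brightest genes depended on the probe set chosen for a gene. Of those 25 genes, 11 stayed among the brightest when a gene was read through the median of its probe sets, and 3 when probe sets ending in _s_at, _x_at or _a_at were left out. With quantile scaling 25 stayed, with the median signal over arrays 24, and with each array left out in turn 23 to 25. Genes above background on all arrays numbered 9504 to 12309 over the alternatives and 11263 to 12127 with an array left out. Members above background summed over the lists, 309 in the report, numbered 263 to 334, and 310 to 326 with an array left out. The median SD of log2 signal was 0.246 with quantile scaling and 0.243 with an offset of 16. It lay between 0.171 and 0.262 with an array left out, the lowest without replicate 3. Of 385 single list counts under alternatives, 357 stayed within 1.5 times the count given and 28 did not. These were counts of small or dim lists, such as T cells, for which 0 to 4 genes passed. Of 1485 recomputed means of named genes, 1484 moved by less than the spread between samples, and Defb1, at background, was the exception without replicate 2. Apart from quantile scaling, these means came from leaving out 1 of the 4 arrays. That cannot move a mean by its SD while the probe set stays the same, so it was no check of these means. All 56 recomputed shifts of lists by array moved by less than the SD of that list's shifts over the 4 arrays. Whether small shifts changed sign was not checked. Quantile scaling and the removal of shared probe sets, the alternatives tried for these shifts, were chosen after seeing the data. No paired analysis was possible because 1 group is described and no groups are compared. Dim genes were limited by signal over background: in the lowest 25% of signals the median range between arrays was 6.26-fold, so order among them was not read.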

Other observations

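Keratins of stratified epithelium divided the samples in another way. Krt5, of basal cells, had 932, 73.7, 1119 and 104, Krt14, its partner, had 297, 39.5, 594 and 10.7, and Krt15 had 582, 12.4, 366 and 17.5. Replicates 1 and 3 were high and replicates 2 and 4 low for each, and Krt13, given in the report, showed the same division. Any 4 values fall into an upper and a lower pair, so the division is a description only. Of 44 keratin genes 11 (25%, against 61.6% of all genes) were above background on all arrays, so most of the family was not detected. Calml3, a calmodulin-like protein of stratified epithelium, had 212, 57.7, 241 and 43.6, and Trp63, the transcription factor of basal cells, had 209.8, 96.8, 184 and 70.4. These genes were chosen after their values were seen, and none of them lies in the top 25% of signals.

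Early response genes were detected in all samples. Of 14 measured, 13 were above background on all arrays, with a median percentile of 71.4 for the list. Egr1, a zinc finger factor induced within minutes of a stimulus, had 4399.8, 2341, 4968 and 3383, Fos had 696, 531, 1161 and 645 and Jun had 2011, 2424, 2090.1 and 2028. Nr4a1 had 488, 282, 446 and 265 and Atf3 had 310.1, 239, 323 and 143. Hspa1b, an inducible heat shock protein, had 4967, 6099, 2995 and 4783, and Fosb had 67.3, 34.8, 35.8 and 29.8 and was above on none. Secreted defence genes were above on all arrays for 12 of 14 measured members, led by Wfdc2 and Ltf. Slpi, an inhibitor of leukocyte proteases, had 406, 267, 1135 and 924, and Defb1, a defensin, had 67.1, 47.1, 70.5 and 65.7 and was above on none, although its other probe set passed on replicate 1 with 89.1. By chromosome, the share of genes above background on all arrays lay between 55.8% on X and 66.3% on chromosome 19, while 0 of 9 genes on Y were above.

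Promoter composition differed between detected and undetected genes. In the 250 bases before the start, from RefSeq on GRCm38.p6, genes above background on all arrays held a median of 16 CpG pairs, against 4 in genes above on none and 13 over all windows. The pattern TATAAA, searched on the strand of the gene, was in 3.93% of windows of the detected genes, against 10.5% of those of undetected ones. These shares describe letters only.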
